A study of Mus musculus with 12 samples.

Results

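The transcripts of 9 digestive enzyme genes of the pancreas, Try5, Ctrb1, Cela2a, Cpa1, Cpb1, Pnlip, Clps, Pnliprp1 and Cel, were followed through 12 mouse liver libraries. They were taken by gene symbol from a table of 17871 genes, and all 9 were found. The genes were chosen by their read counts in these same libraries, because of where the transcripts were high, so their levels are a description and carry no test. Male ICR mice (written IRC in the deposited strain field), 3 weeks old at the start, were divided into groups A0, A10, BA0 and BA10, with 3 libraries in each. A0 mice received water by gavage for 5 weeks, and A10 mice received alginate oligosaccharide (AOS, short chains cut from the alginate of brown algae) at 10 mg/kg by gavage over the same time. BA0 mice received 1 injection of busulfan, an alkylating drug, at 40 mg/kg, followed by water. BA10 mice received the same injection followed by AOS at 10 mg/kg. The libraries carry the names LA0, LA10, LBA0 and LBA10, the tissue field reads cells, and the extraction protocol names liver. The deposited descriptions do not say that each library is 1 mouse, so the tests below measure the spread between libraries.

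Acinar cells of the exocrine pancreas make digestive enzymes, store many of them as inactive precursors in secretory granules and release them into the duodenum. Proteases and carboxypeptidases among them digest protein, and lipases digest fat with the help of a cofactor, colipase. Transcription of these genes in acinar cells is driven by the PTF1 complex, which includes the basic helix-loop-helix factor Ptf1a and Rbpjl or Rbpj. The complex as a whole reads an E-box together with a TGGGAA element. Adult hepatocytes are not known as a main source of these enzymes.

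The sequence before the transcription start was shown for 4 of the genes, since all 9 were high in the same library. These 4 are the ones with an E-box, CACCTG or CAGCTG, among the 7 whose promoter was matched. Cpa1, Pnlip and Pnliprp1 had TGGGAA without either E-box and are not shown. The sequences are the 250 bases before the start in RefSeq (build GRCm38.p6, mm10), read 5′ to 3′ on the strand of the gene. They lie at chr2:28563404-28563653, chr4:141826006-141826255, chr8:111691011-111691260 and chr3:20275734-20275983, all on the minus strand. Capitals mark TGGGAA and the E-boxes CACCTG or, in Ctrb1, CAGCTG, each on either strand.
Cel: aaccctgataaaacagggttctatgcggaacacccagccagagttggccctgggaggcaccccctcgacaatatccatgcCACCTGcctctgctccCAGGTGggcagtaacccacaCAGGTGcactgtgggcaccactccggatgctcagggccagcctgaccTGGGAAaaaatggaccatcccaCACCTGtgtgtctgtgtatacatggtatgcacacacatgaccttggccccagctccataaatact
Cela2a: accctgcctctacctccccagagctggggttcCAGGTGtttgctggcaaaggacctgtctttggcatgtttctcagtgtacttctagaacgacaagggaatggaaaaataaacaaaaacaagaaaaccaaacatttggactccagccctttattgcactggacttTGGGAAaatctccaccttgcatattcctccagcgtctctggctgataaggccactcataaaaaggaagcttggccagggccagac
Ctrb1: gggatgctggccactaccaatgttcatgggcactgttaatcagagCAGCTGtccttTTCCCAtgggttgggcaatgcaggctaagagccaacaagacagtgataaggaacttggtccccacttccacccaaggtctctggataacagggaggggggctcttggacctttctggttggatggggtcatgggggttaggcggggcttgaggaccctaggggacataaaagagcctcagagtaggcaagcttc
Cpb1: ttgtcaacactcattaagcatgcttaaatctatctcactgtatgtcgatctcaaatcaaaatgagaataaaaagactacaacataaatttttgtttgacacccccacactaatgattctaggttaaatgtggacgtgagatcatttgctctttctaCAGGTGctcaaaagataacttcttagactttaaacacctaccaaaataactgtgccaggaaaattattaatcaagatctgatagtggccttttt

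Promoter sequences were matched for 7 of the 9 genes (not Try5 and Clps). TGGGAA stood on either strand in 6 of the 7, all but Cpb1, and in 21.5% of 27025 mouse promoters of the same length. CACCTG stood in Cel, Cpb1 and Cela2a (17.1% of all promoters), CAGCTG in Ctrb1 (12.8%) and TATAAA in Pnlip (13%). In Cel the TGGGAA began at position -87 from the start, among copies of CACCTG at -170, -154, -134 and -65. In Cela2a it began at -85, in Pnliprp1 at -91, in Pnlip at -171, in Ctrb1 at -194 and in Cpa1 at -20. These matches are a description of letters and not of binding.

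The libraries were alike in depth, with totals of 16439485 to 18174565 estimated counts after rounding, so that 3 counts, the upper limit that a count of 0 allows, came to 0.165 to 0.183 CPM (counts scaled to a common library total). Such limits and the intervals below cover counting error only. Hepatocyte transcripts were abundant in every library: Alb (albumin) held 838143 to 1475404 counts, and 10 hepatocyte genes together held 92040 to 131000 CPM, the highest value in BA0 replicate 2. A0 replicates 1 and 2 stood apart in another way. Gene length explained 11.1% and 12.2% of the variance of their gene deviations and 0.15% to 4.66% elsewhere, and comparisons with A0 rest on them.

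Summed over the 9 genes, BA0 replicate 2 held 2873 counts, or 174 CPM, which was 0.0174% of the library (exact Clopper-Pearson 95% interval 0.0168% to 0.0180%). BA0 replicate 3 held 118 counts (7.14 CPM), while BA0 replicate 1 held 6 (0.352 CPM), all of them Cela2a. The sums were 38, 14 and 15 counts in A0, 4, 8 and 1 in A10, and 2, 16 and 2 in BA10. One library thus carried 92.8% of all counts of these genes, and BA0 replicates 2 and 3 carried 96.6%. All 9 genes were detected in those 2 libraries only, against 8, 7 and 5 genes in A0, 1, 2 and 1 in A10, 1 in BA0 replicate 1, and 2, 6 and 2 in BA10. The group level in CPM was 60.4 ± 98.2 in BA0 (SD, n = 3), so the SD exceeded the mean. It was 1.28 ± 0.765 in A0, 0.261 ± 0.214 in A10 and 0.373 ± 0.440 in BA10 (SD, n = 3 each). In whole tissue, fewer cells of a type and less RNA per cell cannot be told apart.

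**Figure D1:**
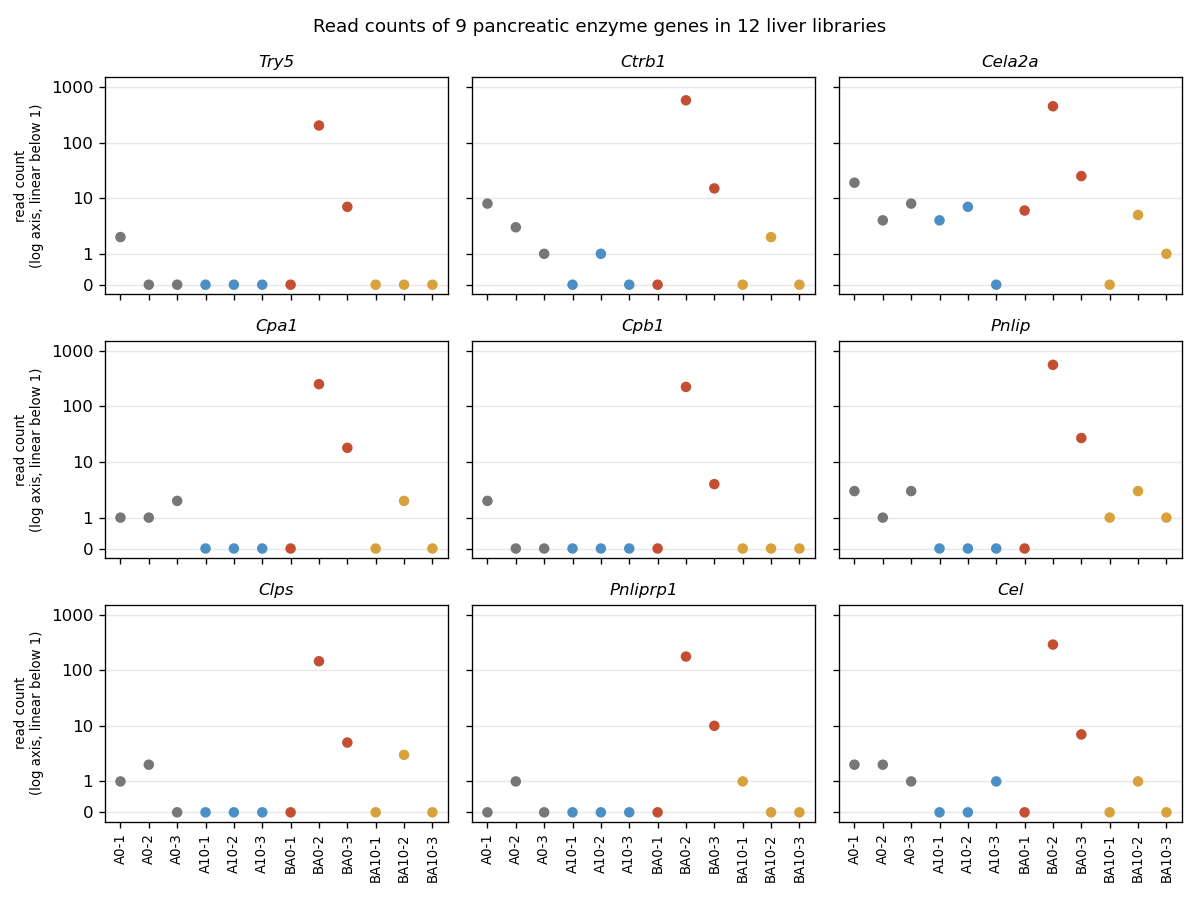
Read counts (vertical axis, log scale, linear below 1) of each of the 9 genes in the 12 libraries (horizontal axis, coloured by group). Each point is 1 library, and in every panel BA0-2 is the highest and BA0-3 the next, while BA0-1 is at 0 except for Cela2a with 6 counts.

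Of the serine proteases, Ctrb1 (chymotrypsinogen B, chr8:111686510-111691010, mm10) was counted 8, 3 and 1 times in A0, 0, 1 and 0 times in A10, 0, 576 and 15 times in BA0, and 0, 2 and 0 times in BA10, replicates 1 to 3. BA0 replicate 2 lay far above every other library, whereas BA0 replicate 1 lay below all 3 A0 libraries. Try5, a trypsinogen of the mouse trypsin cluster (chr6:41311232-41314710), had 2, 0 and 0 counts in A0, none in A10 or BA10, and 0, 203 and 7 in BA0. The groups overlapped here as well, since 1 BA0 library was at 0. The deposited Try5 values carried decimals in the 2 libraries where it was high, and its sequence is close to that of other trypsinogens, so its share of the reads is uncertain.

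Cela2a (chymotrypsin-like elastase, chr4:141814954-141826005) behaved differently at low level. It had 19, 4 and 8 counts in A0, 4, 7 and 0 in A10, 6, 450 and 25 in BA0, and 0, 5 and 1 in BA10. Of the 106 counts that the 9 genes had outside BA0 replicates 2 and 3, 54 were Cela2a, and it was at 0 in only 2 of those 10 libraries, fewer than any other of the 9. BA0 replicate 2 held 85.1% of its counts, compared to 91.3% to 97.4% for the other 8 genes.

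The carboxypeptidases remove amino acids from the end of peptides. Cpa1 (carboxypeptidase A1, chr6:30639218-30645361) had 1, 1 and 2 counts in A0, none in A10, 0, 251 and 18 in BA0, and 0, 2 and 0 in BA10. Cpb1 (carboxypeptidase B1, chr3:20249479-20275733) had 2, 0 and 0 counts in A0, none in A10 or BA10, and 0, 224 and 4 in BA0. Both were thus at 0 in the same BA0 library, and Cpb1 was at 0 in 9 of the 10 libraries other than BA0 replicates 2 and 3.

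Pnlip (pancreatic triglyceride lipase, chr19:58670365-58681799) had 3, 1 and 3 counts in A0, none in A10, 0, 559 and 27 in BA0, and 1, 3 and 1 in BA10. Its related neighbour Pnliprp1 (chr19:58728887-58744169, 47087 bases downstream) had 0, 1 and 0 counts in A0, none in A10, 0, 176 and 10 in BA0, and 1, 0 and 0 in BA10. The pair showed the same order of BA0 libraries. Clps (colipase, which holds the lipase at the fat surface, chr17:28558210-28560766) had 1, 2 and 0 counts in A0, none in A10, 0, 145 and 5 in BA0, and 0, 3 and 0 in BA10. Cel (bile salt-activated lipase, chr2:28555819-28563403) had 2, 2 and 1 counts in A0, 0, 0 and 1 in A10, 0, 289 and 7 in BA0, and 0, 1 and 0 in BA10. For Clps and Cel too, BA0 replicate 1 was at 0 and therefore not above the A0 libraries.

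Levels of different genes were compared per length, as RPKM (reads scaled to gene length and library total). In BA0 replicate 2 Ctrb1 was highest at 46.7 RPKM (counting interval 43.0 to 50.7), followed by Cela2a at 35.3 RPKM and Pnlip at 25.1 RPKM. Clps (21.5 RPKM) and Try5 (18.6 RPKM) came next, and Cpa1 (10.6 RPKM), Cpb1 (9.95 RPKM), Cel (9.02 RPKM) and Pnliprp1 (7.20 RPKM) closed the order. Neighbours in this order had intervals that overlapped, except Ctrb1 with Cela2a, Cela2a with Pnlip, and Try5 with Cpa1. In BA0 replicate 3 the levels ran from 0.18 RPKM (Cpb1) to 1.95 RPKM (Cela2a), and every pair of neighbours overlapped.

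**Figure D2:**
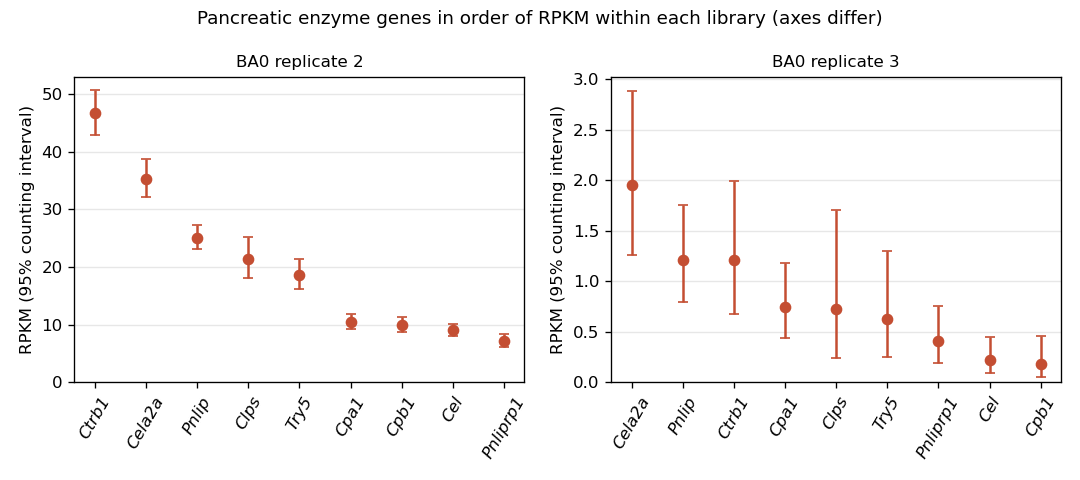
Level in RPKM (vertical axis, scale differs between panels) of the 9 genes ordered within BA0 replicate 2 and within BA0 replicate 3, with 95% counting intervals as bars. Ctrb1 leads at 46.7 RPKM in the first, and Cela2a at 1.95 RPKM in the second, where all neighbours overlap.

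The proportions of the 9 genes were compared between the 2 libraries. Of the summed counts, Ctrb1 held 20.05% in BA0 replicate 2 and 12.71% in replicate 3, and Cpa1 held 8.74% and 15.25%. The summed CPM of the 9 genes was 24.3 times higher in BA0 replicate 2 than in replicate 3 (exact 95% interval 20.2 to 29.5). Single genes ran from 13.9 times for Cpa1 (8.64 to 23.9) to 56.0 times for Cpb1 (21.6 to 207). Of the 9 intervals 8 held the ratio of the sum, Cpa1 being the exception. With 4 to 27 counts per gene in replicate 3 the intervals are wide, so they do not show equal proportions. Pancreatic amylase, Amy2a5, which was not among the 9, had a ratio of 28.7 (23.1 to 36.3).

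**Figure D3:**
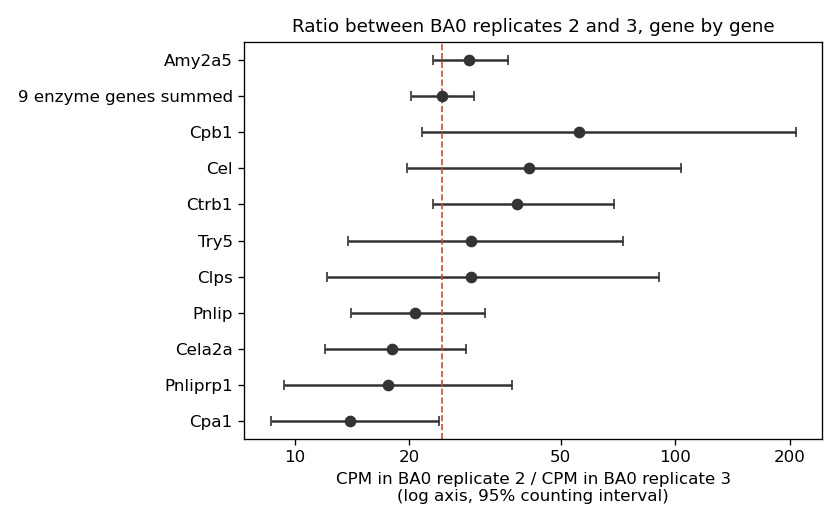
Ratio of CPM in BA0 replicate 2 to CPM in BA0 replicate 3 (horizontal axis, log scale) for each gene, for the 9 genes summed and for Amy2a5, with 95% counting intervals. The dashed line marks the ratio of the sum, 24.3, and only the interval of Cpa1 lies wholly below it.

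Other products of the acinar cell were read from lists of enzyme and granule genes, of which 39 of 44 were listed in the table. All 39 had counts in BA0 replicate 2, 36 were highest there in CPM, 22 had at least 10 counts there, and 28 had over 50% of their counts there. Amy2a5 (starch digestion) had 33, 19 and 20 counts in A0, 0, 1 and 0 in A10, 0, 2358 and 82 in BA0, and 0, 17 and 0 in BA10. Its low counts followed those of the 9 genes: all 3 A0 libraries and BA10 replicate 2 stood above the remaining low libraries. The trypsinogens 2210010C04Rik, Try4 and Prss2 had 405, 381 and 237 counts in BA0 replicate 2 and 18, 8 and 9 in BA0 replicate 3. Amylases and trypsinogens exist as near-identical copies, so the split of reads among copies is uncertain. Cela1, an elastase, had 235 to 375 counts in the other 11 libraries and 518 in BA0 replicate 2, a ratio of 1.68 (1.45 to 1.94) to replicate 3. Erp27, a chaperone-binding protein of the endoplasmic reticulum, was lowest in BA0 replicate 2 with 10 counts.

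**Figure D4:**
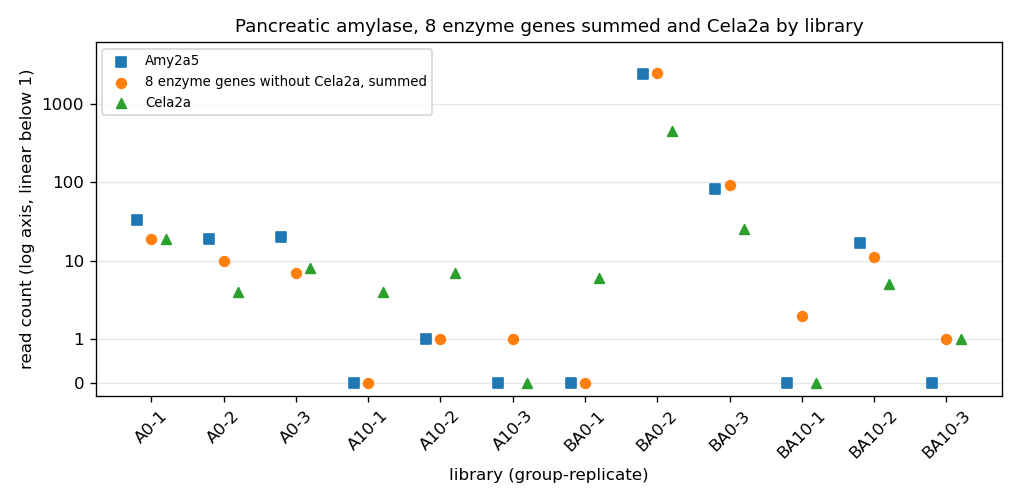
Read counts (vertical axis, log scale, linear below 1) of Amy2a5, of 8 of the enzyme genes summed and of Cela2a in the 12 libraries (horizontal axis). BA0-2 holds 2358, 2423 and 450 counts, the A0 libraries hold 19 to 33 Amy2a5 counts, and BA0-1 holds 0, 0 and 6.

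Markers of other cells near the exocrine pancreas were summed per library. Islet genes, of which 8 of 14 were found, came to 0.544 CPM (9 counts) in BA0 replicate 2 and 0.110 to 0.424 CPM in the others. That library held 1 count of Ins2, 4 of Sst and 1 of Ppy, all hormone genes, where every other library held 0. Of the 8, only these 3 were highest there. Slc30a8, Chgb and Pdx1 had 0 counts in BA0 replicate 2, while Pax6 (1) and G6pc2 (2) were higher elsewhere. Duct and cholangiocyte genes came to 40.3 CPM in BA0 replicate 2, within the 30.0 to 56.9 CPM of all libraries. All 6 adipocyte genes found were highest in BA0 replicate 2 (9.62 CPM summed, 2.76 to 6.55 CPM in the other 11), with 9 counts of Adipoq and 6 of Plin1. Of the transcription factors of acinar cells, Rbpjl had 0 or 1 count in every library. Bhlha15 had 2 to 8 counts in A0 and in A10 replicates 1 and 2 compared to 36 to 82 elsewhere, and so did not follow the enzymes. Whether pancreatic tissue taken with the liver gave these reads was not tested.

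The genes most like the 9 over the 12 libraries were sought by Pearson correlation of log2(CPM + 0.25) with their median profile. Candidates were the 12895 others that passed the filter on low counts. Only 4 of the 39 other acinar genes passed it, so most of those could not appear in this ranking. The highest were Amy2a5 (r = 0.92), Gsn (0.90), Cav1 (0.87), Cyp3a41a (0.84), Parp10 (0.84) and Apoc1 (0.83). Without BA0 replicate 2 these values were 0.77, 0.61, 0.48, 0.48, 0.54 and 0.26 over 11 libraries, the smallest drop being that of Amy2a5. Without BA0 replicates 2 and 3 they were 0.81 for Amy2a5, 0.37 for Parp10 and 0.21 for Gsn, and below 0 for Cav1 (-0.34), Cyp3a41a (-0.27) and Apoc1 (-0.08), over 10 libraries. A wider search, set after the data had been seen, took genes with at least 10 counts and at least 10 times the CPM of every other library. BA0 replicate 2 had 33 such genes, namely all 9 enzyme genes, 18 listed acinar genes and 6 outside the 9 and the lists. Whether acinar cells make any of those 6 was not tested. Each other library had 0 to 4, none of them an enzyme gene or a listed acinar gene. That the 9 were found here follows from their choice for high counts in BA0 replicate 2. Among the 6, the entry BGIG10090_45951 had the most counts, 1931 (76 in BA0 replicate 3 and at most 8 elsewhere). Cyp3a41a, a cytochrome P450, had 1493 counts (78 in BA0 replicate 3 and at most 56 elsewhere). Dmbt1 had 109 counts (5 in BA0 replicate 3 and at most 10 elsewhere).

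The comparison of BA0 with A0 asked what busulfan changed in the liver. Only Cela2a of the 9 genes passed the filter on low counts in the quasi-likelihood fit of edgeR, and it was not called at a Benjamini-Hochberg adjusted p under 0.05 (log2 fold change 3.80, edgeR adjusted p = 0.0898, past an unadjusted 0.05), where 6.38% of 12896 genes were called. Without the filter all 9 were tested and 0 were called (edgeR adjusted p of 0.0712 to 0.13, 2.43% of genes called). All 9 then had an unadjusted p under 0.05, which is a description only, since they were chosen on these counts. DESeq2 gave an adjusted p for 7 of the 9 and called 1, Pnlip (log2 fold change 6.23, DESeq2 adjusted p = 0.0239, 13.7% of genes called). Pnlip was chosen for its high BA0 counts, so this call supports nothing. Leaving out BA0 replicate 1, the library at or near 0, left in BA0 only the libraries on whose high counts the genes had been chosen, and 4 more genes passed the filter through them. In that fit edgeR called 4 of the 5 tested, Pnlip (log2 fold change 6.77, edgeR adjusted p = 0.0370), Cpa1 (6.41, 0.0396), Ctrb1 (6.03, 0.0402) and Pnliprp1 (adjusted p = 0.0437, with 1 count in all of A0), beside 2.59% of all genes. These calls follow from the choice of genes and libraries and support nothing. Without BA0 replicate 2 only Cela2a could be tested, and it was not called (0.229% of genes called).

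The comparison of BA10 with BA0 asked what AOS changed after busulfan. Cela2a was lower in BA10 by edgeR's estimate (log2 fold change -6.30, edgeR adjusted p = 0.629) and was not called, where 0.0543% of genes were called. Without the filter, 0 of 9 were called at an edgeR adjusted p of 0.514 to 0.964 (0.0617% of genes called), and DESeq2 called 0 of the 8 with an adjusted p, which left out Cpb1 (0.203% of genes called). Of BA0 against A10, Cela2a had a log2 fold change of 5.40 (edgeR adjusted p = 0.893), and 0% of genes were called with or without the filter. Without the filter the edgeR adjusted p of the 9 ran from 0.878 to 0.946. DESeq2 called 1 of the 8 with an adjusted p (again not Cpb1), namely Pnlip (DESeq2 adjusted p = 0.0135, 0.182% of genes called). This call too follows from the choice of Pnlip for its high BA0 counts and supports nothing. All 3 comparisons share the BA0 libraries.

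The study names a random sampling model on reads, run in the DEGseq package, which takes no account of the spread between libraries. That package was not run here. A separately coded version of the model was applied to the reads summed over each group. Calls needed an adjusted p of at most 0.001 and an absolute log2 fold change of at least 1. The model compares the pooled reads and not the conditions. All 9 genes were called higher in BA0 than in A0 (4.29% of genes called higher), all 9 lower in BA10 than in BA0 (1.12% called lower), and all 9 higher in BA0 than in A10 (1% called higher). Together with 18 other acinar genes they made up 27 of 739 genes called higher, 27 of 193 called lower and 27 of 174 called higher, or 3.65%, 14.0% and 15.5%. Of the 20 genes with the largest fold in these directions, 8, 15 and 16 were enzyme or other acinar genes. The 9 were chosen for high counts in BA0 replicate 2, so their calls, ranks and part of these shares follow from that choice. Without BA0 replicate 2 the model called 2 of the 9 against A0 (Pnlip and Cpa1, 3.88% of genes called higher) and 4 in each of the other 2 comparisons (Pnlip, Cpa1, Ctrb1 and Cela2a, 0.84% and 0.844% of genes called in the same direction). This drop follows from the counts, since the genes were chosen for being high in that library. BA0 replicate 1 alone had 0 counts for 8 of the 9, so the model without BA0 replicates 2 and 3 is no test of them.

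**Figure D5:**
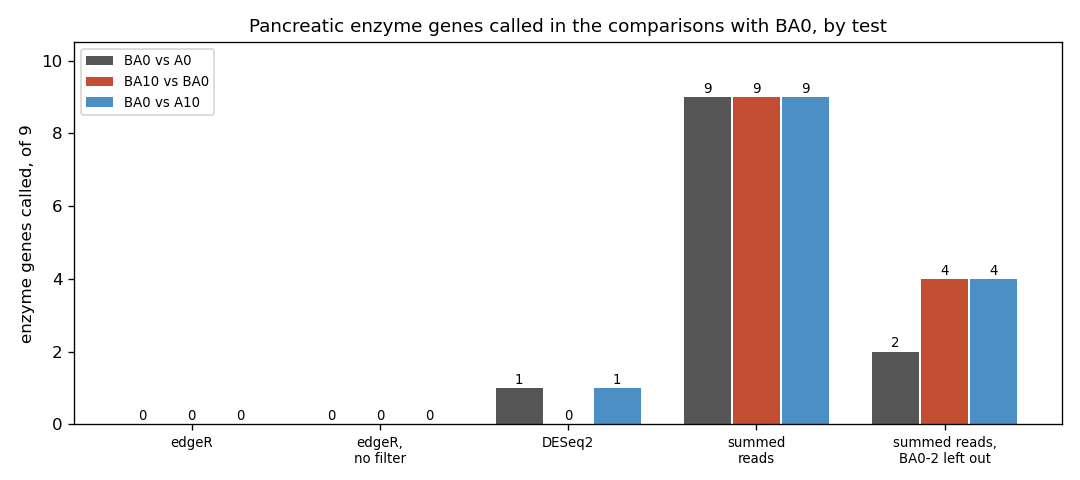
Number of the 9 enzyme genes called (vertical axis) in the 3 comparisons with BA0 (colours) under 5 tests or sets of libraries. The summed-read model shows 9 with all libraries and 2 or 4 without BA0-2, the library the genes were chosen on, while edgeR shows 0 (1 gene tested with the filter, 9 without).

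The effect of BA0 replicate 2 on other genes was followed in the edgeR fits. Against A0 the calls fell from 823 to 30 without it, with 27 genes shared (3.28% of the first list, 90% of the second). No enzyme or other acinar gene was among the 823, so none could be lost. Among the lost calls with the largest fold, Ntrk2 kept a log2 fold change of 8.72 (9.62 with BA0 replicate 2) while its edgeR adjusted p went from 0.0219 to 0.0517. Cyp3a41a went from a log2 fold change of 8.77 to 5.36 (edgeR adjusted p 0.0425 to 0.126), and Cyp2b9 from 6.41 to 2.83 (0.0441 to 0.121). This drop was not particular to that library: the count was 4 without A0 replicate 1 or A0 replicate 2, 12 without BA0 replicate 3, 339 without BA0 replicate 1, 1876 without A0 replicate 3, 468 and 1305 without A10 replicates 2 and 3, and 346 to 364 without each BA10 library in turn. Between BA10 and BA0 the calls went from 7 to 11 with 6 shared, and against A10 from 0 to 1. Leaving the enzyme and other acinar genes out of the totals moved the TMM scaling factor of BA0 replicate 2 by 0.0166%, the largest shift of any library.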

How the data were processed

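Liver RNA of 4 groups was sequenced, 3 libraries each. The deposited table holds an estimated count per gene, which the authors obtained by aligning reads with SOAPaligner (build mm10, per the labels), and an RPKM value that the authors derived from it through gene length and library size. The annotation, the counting program and the origin of decimal counts: not given in the sources used here. Between 78.6% and 80.3% of counts were whole (within 1e-06), and all were rounded. No column of a single library was left out, whereas 8 columns of group means were.

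Software was edgeR 4.0.16, DESeq2 1.42.0 and limma 3.58.1 under R 4.3.3, and scipy 1.17.1 under Python 3.11.15. The filter was filterByExpr (minimum count 10, minimum total 15), scaling was by TMM, and edgeR's quasi-likelihood test was fitted over 12 libraries by group. In the random sampling model a count of 0 was set to 0.5. All tests were tried on simulated data. The reads simulated for the random sampling model had no spread between libraries, so that trial cannot show its errors under such spread. No simulated data held a single outlying library. Alternatives were upper-quartile and RLE factors, no filter, DESeq2, the replicate number as a block, leaving out each library and leaving out acinar genes. The sampling model, the joint omission of BA0 replicates 2 and 3 and unfiltered fits without a BA0 library were added after seeing the data. Promoters and positions came from RefSeq on GRCm38.p6.

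The 9 genes, the lists and the tests were chosen with earlier results of these data known. Named genes were the 9, up to 6 other acinar genes of the highest mean CPM, the 6 most correlated genes, and up to 6 genes per comparison whose call changed without BA0 replicate 2. Genes named from other lists, Dmbt1 and BGIG10090_45951 were picked once their values had been seen.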

Additional observations from a re-analysis of the deposited data

How the results depend on the processing

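For BA0 against A0 the 823 calls (527 higher, 296 lower) became 433 without the filter, 1633 with DESeq2 and 2 without BA0 replicates 2 and 3, and 215, 60 and 10 in unfiltered fits without BA0 replicate 1, 2 or 3. The sampling model gave 866, then 798 without BA0 replicate 2 and 597 without replicates 2 and 3. Upper-quartile factors turned the split to 415 higher and 679 lower, and RLE factors gave 444 and 363. For BA10 against BA0 the 7 calls became 11 without the filter, 34 with DESeq2, 14 unfiltered without BA0 replicate 2, and 312 by the sampling model (309 without BA0 replicate 2, 467 without replicates 2 and 3). For BA0 against A10 the 0 calls became 23 with DESeq2, 1 without BA0 replicates 2 and 3, 3 and 1 unfiltered without BA0 replicate 2 or 3, and 265, 263 and 380 by the sampling model with the same omissions. Leaving out 1 library in turn gave 4 to 1876, 3 to 12 and 0 to 2 calls.

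Of the 9 enzyme genes edgeR called 0 in each comparison, where 1 passed the filter (6.38%, 0.0543% and 0% of genes called). DESeq2 called 1 of 7, 0 of 8 and 1 of 8 (13.7%, 0.203% and 0.182%). Calls of the 9 under any test follow from their choice for high BA0 counts. The sampling model called 9 in each (4.29%, 1.12% and 1% of genes called in the same direction). Without BA0 replicate 2 it called 2, 4 and 4 (3.88%, 0.84% and 0.844%). An unfiltered fit without BA0 replicate 1 called 5 against A0, beside 215 of all 17748 genes. That fit kept in BA0 only the libraries on whose high counts the genes were chosen. Leaving out 1 library in turn gave 0 to 4, 0 to 0 and 0 to 0, the 4 without BA0 replicate 1 (2.59% of genes called). Of the 39 other acinar genes 4 were tested by edgeR against A0 and 0 were called (1 at an unadjusted edgeR p under 0.05). Without 1 library 0 to 2 were called, and 4 in the unfiltered fit without BA0 replicate 1 (215 of 17748 genes). The sampling model called 18 higher (4.29% of genes) and 1 without BA0 replicate 2 (3.88%). The sum in BA0 replicate 2 was 166.5 CPM after TMM and 184 RPKM. Apart from the omitted libraries, the cause of these shifts was not tested.

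With the replicate number as a block, edgeR called 881, 5 and 0 genes and 0 enzyme genes in the 3 comparisons. Same-numbered libraries had correlations of -0.07 to 0.14 and 5 of 12 matched their own number best, so the numbers were not taken to pair the libraries. Depth limits every statement on the low libraries, where most enzyme genes had 0 to 3 counts.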
